A study of Caenorhabditis elegans with 2 samples.

Results

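The DREAM complex genes of the nematode Caenorhabditis elegans are 8 of the 19973 protein-coding genes on its nuclear chromosomes. They were chosen by name, with earlier results of these data known. They are lin-35, lin-9, lin-37, lin-52, lin-53, lin-54, efl-1 and dpl-1. The data are genome regions enriched with the zinc finger protein TRA-4, a relative of PLZF that takes part in sex determination, as measured by chromatin immunoprecipitation and sequencing. The worms were of strain OP640 (unc-119(tm4063) III; wgIs640), a transgenic line that expresses TRA-4 with GFP and FLAG at its C-terminus, and the chromatin was taken down with anti-GFP. The 2 biological replicates of this 1 group were whole early embryos of mixed sex obtained by bleaching, so a region is an average over all embryonic cells. No other genotype, stage or treatment was analysed here.

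DREAM is a repressor complex of cell cycle genes, and in the worm it also keeps germline genes silent in somatic cells. Its pocket protein LIN-35 is the homologue of the retinoblastoma protein, and EFL-1 and DPL-1 form its E2F and DP pair, which binds DNA. The MuvB core holds LIN-9, LIN-37, LIN-52, LIN-53 and LIN-54. LIN-54 binds the CHR element of target promoters, and LIN-52 joins the core to the pocket protein. LIN-53 is a histone-binding protein that other chromatin complexes also use. The worm genes are known as synMuv B genes, whose loss together with that of a synMuv A gene gives ectopic vulval fates.

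Each gene was searched for summits from 1 kb upstream of its annotated start to its end. There were 4 lists: the authors' final set of 394 regions selected by the irreproducible discovery rate (IDR), the relaxed list of the pooled replicates with 9660 regions, and the relaxed lists of replicate 1 with 19062 and of replicate 2 with 13957. The relaxed lists mix background with enrichment, per the deposited descriptions. Rank 1 is the strongest region of a list by the authors' signal value, whose scale differs between lists. All 394 IDR regions are also in the pooled list, where they fill ranks 1 to 394. With a single group there is no comparison between conditions, and counts are set beside the share of all protein-coding genes searched in the same way.

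Sequence is shown for 4 members on chromosomes II to V. It covers the regions at lin-52 and lin-54, the weak region at dpl-1, and the upstream sequence of efl-1 as the member with no region. The IDR peak, at lin-35, is not among them and holds none of the motifs marked below. The sequences are from the RefSeq genome of assembly WBcel235, the assembly of ce11, and run 5′ to 3′ in the direction of the gene. For the first 3, each shows 75 bases on either side of the summit of the gene's strongest pooled region, and for efl-1 the 250 bases before the annotated start. Capitals mark TTTGAA, the core of the CHR element, and 4 sites of the E2F type, which are GGCGGG, then GCGCG with TTCCCGC, and lastly TTTGGCG, each searched on either strand. The E2F sites can overlap one another, as GGCGGG does with TTCCCGC on the other strand.
lin-52 (chrIII:9824291-9824441, minus strand): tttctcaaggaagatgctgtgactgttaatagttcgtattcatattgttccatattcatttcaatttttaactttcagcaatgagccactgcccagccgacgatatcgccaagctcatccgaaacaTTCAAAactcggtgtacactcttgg
lin-54 (chrIV:13240653-13240803, plus strand): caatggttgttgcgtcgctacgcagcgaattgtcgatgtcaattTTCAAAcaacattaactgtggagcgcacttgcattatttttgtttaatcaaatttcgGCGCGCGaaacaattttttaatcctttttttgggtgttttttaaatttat
dpl-1 (chrII:9169634-9169784, plus strand): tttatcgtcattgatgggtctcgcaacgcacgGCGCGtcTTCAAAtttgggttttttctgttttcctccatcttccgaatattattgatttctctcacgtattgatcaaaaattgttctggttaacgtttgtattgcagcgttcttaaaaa
efl-1 (chrV:16965676-16965925, minus strand): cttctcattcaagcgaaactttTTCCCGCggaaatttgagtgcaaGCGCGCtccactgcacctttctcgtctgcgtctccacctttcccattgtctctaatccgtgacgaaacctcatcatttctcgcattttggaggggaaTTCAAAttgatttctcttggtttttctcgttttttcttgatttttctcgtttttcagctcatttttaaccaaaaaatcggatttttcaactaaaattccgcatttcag

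In the pooled list lin-35, lin-52, lin-53 and lin-54 had regions at ranks 127, 409, 515 and 547. The strongest regions of dpl-1 and lin-9 ranked 7545 and 8886, and lin-37 and efl-1 had none. Members with an IDR peak numbered 1 of 8, where 1.9% of all protein-coding genes had one. Members with one of the 1000 strongest pooled regions numbered 4 of 8, where 4.41% of protein-coding genes had one. The 1000 strongest regions of replicate 2 also reached 4 of 8, against 4.43%, but those of replicate 1 reached 2 of 8, lin-35 and lin-52, against 4.4%. Overlapping regions among the 1000 strongest of each replicate lay at those same 2 of 8, against 2.21%. A pooled region with a q-value under 0.05 was found at 3 of 8, lin-35, lin-52 and lin-53, against 2.52%. Any pooled region was found at 6 of 8, against 28.8% of protein-coding genes. Replicate 1 had regions at 7 of 8 members, against 46.3% of protein-coding genes, and replicate 2 at 6 of 8, against 37.3%. Overlapping regions of both replicates lay at 5 of 8, lin-35, lin-52, lin-53, lin-54 and dpl-1, against 21.3% of protein-coding genes.

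Longer windows hold more regions, and the members' windows ran from 1668 bp at lin-52 to 8929 bp at lin-35. Among the 16513 protein-coding genes with a window length in that range, 26.8% had a pooled region and 1.68% an IDR region. The median over members was 0.249 pooled regions per kb of window, and the median over protein-coding genes was 0. Summed over windows the pooled list gave 0.223 regions per kb at members and 0.107 at protein-coding genes. Replicate 1 gave 0.335 and 0.206, and replicate 2 gave 0.195 and 0.152. Within 500 bp of the start, 5 of 8 members had a pooled summit, against 12.3% of protein-coding genes. The median distance from a member's start to the nearest pooled summit was 285.5 bp, against 4602 bp for protein-coding genes. Among the member starts the shortest distance was 182 bp, at lin-52, and the longest 90288 bp, at efl-1.

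**Figure D1:**
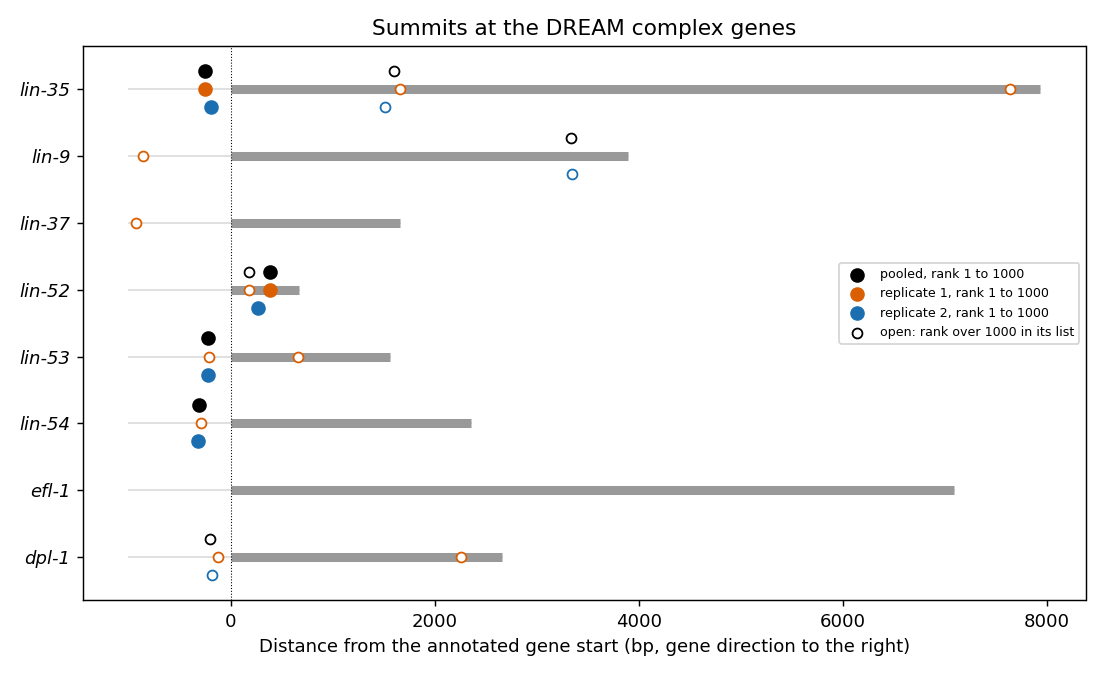
Summits at the 8 genes by distance from the annotated start in bp, with the gene as a grey bar and the searched upstream 1 kb as a thin line; black is the pooled list, orange replicate 1 and blue replicate 2, and filled points rank 1 to 1000 in their list. Filled points lie upstream of lin-35, lin-53 and lin-54 and inside lin-52, and efl-1 has no point.

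**Figure D2:**
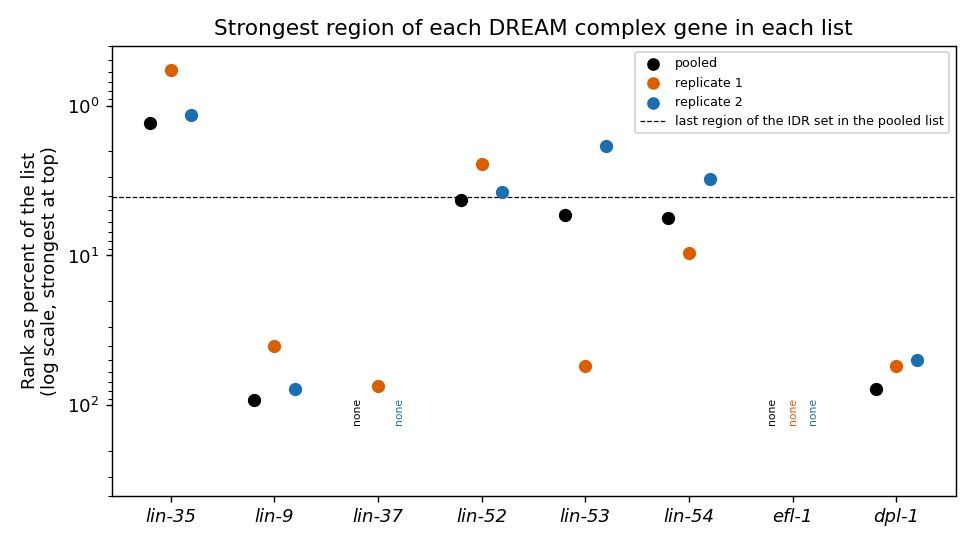
Rank of the strongest region of each gene in each list, as a percent of the list's length on a log axis with the strongest at the top; the dashed line is the last IDR region in the pooled list, at rank 394. The line applies to the pooled points, of which only that of lin-35 lies above it. At lin-53 the replicate 1 point is the region in the coding exon, at rank 10446.

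The pocket protein gene lin-35 (WBGene00003020, ce11 chromosome I, 5807709 to 5815637, plus strand) had the strongest region of the set in every list. The pooled region (5807214 to 5807693) had a signal of 157.1 and a q-value of 0.00246, and its intergenic summit at 5807454 lay 255 bp upstream of the start. Signal was 69.9 in replicate 1, at rank 111, and 92.1 in replicate 2, at rank 162, each on its own scale. Both replicates thus placed the region among their strongest 200, and the summits were 61 bp apart. The nearest competing start was that of vps-51, which encodes a subunit of a vesicle tethering complex and runs the other way from a start 418 bp from that of lin-35. In replicate 1 and in the pooled list the summit was nearer to vps-51, at 163 bp. In replicate 2 it was nearer to lin-35, at 194 bp against 224 bp, so the lists disagree on the nearest gene.

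The body of lin-35 also held weak regions. A pooled region with its summit 1595 bp into the gene ranked 4569, with a signal of 53.7 and a q-value of 0.777. It lay in a lin-35 intron and in a coding exon of C32F10.4, whose start was 698 bp away. Replicate 2 placed it at rank 4564 and replicate 1 at rank 15883. A region in the 3′ UTR, 7633 bp from the start, was listed in replicate 1 alone, at rank 14820.

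Of the pair that binds DNA with the pocket protein, efl-1 had no region in any list. The gene (WBGene00001161, chromosome V, 16958590 to 16965675, minus strand) encodes the E2F subunit. Its nearest pooled summit lay 90288 bp from the start, beyond the end of the gene, and 0.416% of protein-coding starts were as far or farther from one. The nearest summits of the replicates lay 11387 bp away in replicate 1 and 44508 bp away in replicate 2, both upstream. As far or farther from a summit were 4.82% and 0.411% of protein-coding starts. The upstream sequence printed above holds TTCCCGC, overlapping GCGCG matches and TTTGAA. Annotated starts of many worm genes are sites of trans-splicing. Here, as at the other members, the 1 kb searched upstream and the shorter sequence read for motifs may not reach the promoter. Whether they do was not tested.

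The DP subunit gene dpl-1 (WBGene00001061, chromosome II, 9169910 to 9172565, plus strand) had a weak region near its start. The pooled region (9169469 to 9169948) ranked 7545, with a signal of 47.2, a q-value of 0.912 and a summit 201 bp upstream. It ranked 18036 in replicate 1, with a signal of 16.1, and 6969 in replicate 2, with a signal of 31.9. The position recurred, with summits 54 bp apart, but the region stood low in each list. The pooled summit fell in an exon of T23G7.2, which spans dpl-1 on the opposite strand, and the nearest competing start was that of T23G7.3, 1879 bp away. Replicate 1 also listed a region in a coding exon of dpl-1, 2259 bp from the start, at rank 10480.

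In the MuvB core, lin-52 had the strongest region of the pooled list and of replicate 1, while lin-53 and lin-54 ranked above it in replicate 2. The gene (WBGene00003035, chromosome III, 9824083 to 9824750, minus strand) is 668 bp long, and the pooled region (9824126 to 9824605) covered most of it. That region ranked 409, 15 places below the last IDR region, with a signal of 100.8 where the lowest in the IDR set was 101.6. Its q-value was 0.0184. The summit was intronic, 384 bp downstream of the annotated start and 204 bp from that of the shorter of the 2 transcripts. In replicate 1 the region had a signal of 41.8 and rank 466 with the summit at the same base, and in replicate 2 a signal of 59.7 and rank 524.

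The lin-52 regions had no close competing start. The nearest was that of ZK632.9, 1066 bp from the pooled summit, and the nearest small RNA start was that of the snoRNA gene ZK632.18, 8741 bp away. A second pooled region overlapped the first, with its summit in a coding exon 182 bp from the annotated start and 2 bp from that of the shorter transcript. It ranked 1406 in the pooled list, with a signal of 70.7, and 17031 in replicate 1. Replicate 2 listed a single region, in a coding exon at 265 bp, which overlapped both regions of replicate 1.

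The region at lin-53 differed between the replicates. The gene (WBGene00003036, chromosome I, 9618196 to 9619760, minus strand) had a pooled region at 9619741 to 9620220, ranked 515, with a signal of 92.8 and a q-value of 0.0476. In replicate 2 it had a signal of 74.6 and rank 261. In replicate 1 it had a signal of 17.9, a q-value of 0.903 and rank 13341. The position was the same, with summits 7 bp apart, but the ranks differed 51.1-fold. Of 992 regions among the 1000 strongest pooled that overlapped a region in both replicates, 4 (0.403%), the lin-53 region and 3 others, differed as much, and the median ratio was 2.17. From replicate 2 alone the region was thus among the 394 strongest, and from replicate 1 alone it was not.

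The intergenic lin-53 summit lay 221 bp upstream of the start and 246 bp upstream of nra-2, a gene on the opposite strand whose start is 467 bp from that of lin-53. The nearest start was that of lin-53 in all 3 lists. Replicate 1 had a further region in a coding exon, 656 bp from the start, at rank 10446. The paralogue rba-1, a gene for a second protein of the same histone-binding family, begins 997 bp from that summit.

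At lin-54 the region was nearer to a ribosomal protein gene. The gene (WBGene00003037, chromosome IV, 13241044 to 13243401, plus strand) encodes the DNA-binding subunit of the core. Its pooled region (13240488 to 13240967) ranked 547, with a signal of 91.1 and a q-value of 0.0558. Signal was 30.1 in replicate 1, at rank 1825, and 63.2 in replicate 2, at rank 434. The intergenic summit lay 316 bp upstream of lin-54 but 77 bp upstream of rpl-12, which encodes a protein of the large ribosomal subunit and starts 393 bp away on the other strand. The summit was nearer to rpl-12 in all 3 lists, at 101 bp in replicate 1 and 67 bp in replicate 2. The nearest small RNA start was that of the snoRNA gene JC8.15, 1651 bp from the pooled summit.

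The remaining core genes had weak regions that did not recur at the start. At lin-9 (WBGene00002998, chromosome III, 8900237 to 8904131, minus strand) a pooled region ranked 8886, with a signal of 45.0 and an intronic summit 3334 bp into the gene. Replicate 2 had it at rank 10806, and replicate 1 listed none there. For the pooled summit the nearest competing start was that of the piRNA gene 21ur-13808, 1003 bp away. Replicate 1 had an intergenic region 856 bp upstream of lin-9, at rank 7628, 601 bp from the noncoding RNA gene ZK637.19 and 628 bp from unc-32, which encodes a subunit of the vacuolar ATPase. At lin-37 (WBGene00003022, chromosome III, 7070890 to 7072552, minus strand) the single region was 929 bp upstream in replicate 1, at rank 14178, in an intron of ZK418.5. The start of ZK418.5 was nearer to that summit, at 370 bp.

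**Figure D3:**
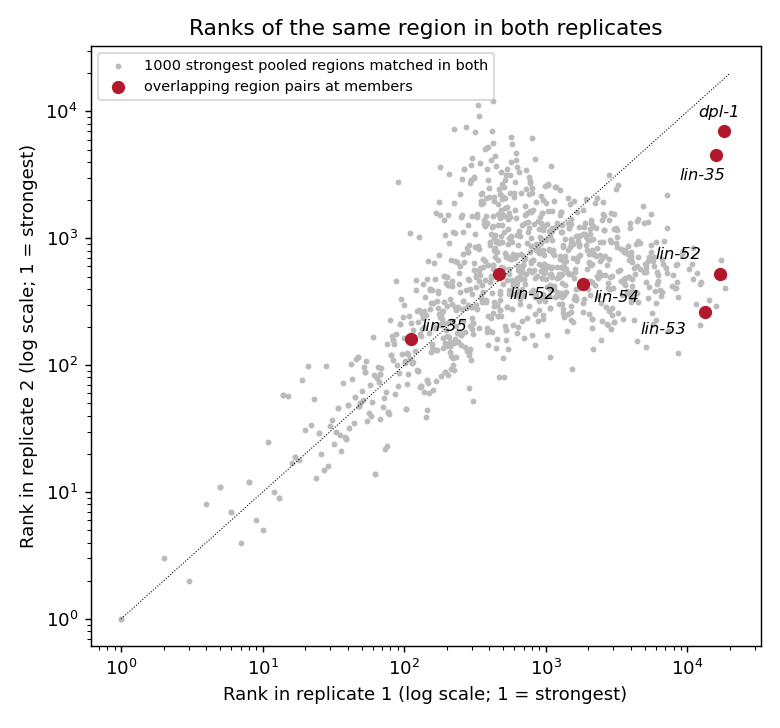
Rank in replicate 1 against rank in replicate 2, both on log axes, for the 7 pairs of overlapping regions at members (red) and for the 992 strong pooled regions matched in both (grey); the dotted line marks equal rank. The lin-35 pair at ranks 111 and 162 and the lin-52 pair at 466 and 524 lie near the line, and lin-53 at 13341 and 261 lies far to the right of it.

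The 3 strongest upstream regions of the pooled list had a position in common, which the fourth upstream region, in an exon of T23G7.2 at dpl-1, did not have. The regions of lin-35, lin-53 and lin-54 were all intergenic and lay between starts of protein-coding genes that run apart, an arrangement noticed after the values were seen. These 3 of 8 members have an opposite-strand protein-coding start within 500 bp upstream, against 9.25% of all protein-coding genes. Over all genes with such a divergent partner, 22.2% had a pooled summit within 500 bp of the start, against 11.2% of the other genes. For IDR summits the shares were 2.92% and 0.783%. A summit between close starts counts for both genes. By nearest start, 4 of the 8 pooled regions at members belonged to the member itself, 2 at lin-52 and 1 each at lin-53 and dpl-1.

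Motif matches were counted in the 151 bases around each pooled summit. TTTGAA was found in 5 of the 8 pooled regions at members, against 33.1% of all 9660 pooled regions and 20.1% of IDR regions. These were both lin-52 regions and those of lin-53, lin-54 and dpl-1. The lin-52 regions overlap as called, but the 151 bases around their summits do not. GCGCG was found in 3, at lin-53, lin-54 and dpl-1, against 11.8% of pooled regions and 30.5% of IDR regions. The 151 bases around the summits of the 2 lin-35 regions and of the lin-9 region held none of the 5 motifs. In the promoter window from 250 bases before to 50 after the start, TTTGAA was found in 6 of 8 members, against 62.5% of protein-coding genes. GCGCG was found in 5 of 8, lin-35, lin-9, lin-53, efl-1 and dpl-1, against 14.1%, and TTCCCGC in 2 of 8, lin-53 and efl-1, against 3.22%. GGCGGG and TTTGGCG were found in 0 of 8, against 6.48% and 3.63%. The members with GCGCG in the promoter include efl-1, which had no region, and do not include lin-52 or lin-54.

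GC content around the summit also varied among members. It was 50.3% at lin-53, 40.4% at the stronger lin-52 region, 37.7% at dpl-1, 35.1% at lin-54 and 33.8% at the upstream lin-35 region. The second pooled regions of lin-35 and lin-52 had 36.4% and 33.8%, and the lin-9 region had the lowest value, 31.8%. The median was 47.0% over IDR regions and 39.1% over all pooled regions. The lin-35 IDR peak thus lay below both medians.

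Genes that work with DREAM were searched in the same way. Of 16 genes of Rb and E2F cell cycle control, 9 had a pooled region and 1 an IDR peak, and 5 had overlapping regions in both replicates. The shares of protein-coding genes, for this list and those that follow, were 28.8%, 1.9% and 21.3%. The IDR peak was in cye-1, the cyclin E gene, at rank 38 (signal 251.5), but its summit fell inside a tRNA gene in a cye-1 intron, at 5 bp from the tRNA start. The E2F family gene efl-3 ranked 1869 in the pooled list, with a summit at -260 bp from its start, 1849 in replicate 1 and 1587 in replicate 2. The inhibitor gene cki-1, for a CDK inhibitor, ranked 1904, with its summit at -183 bp. The cyclin D gene cyd-1 ranked 1495, with its summit 8989 bp from the start, in an intron and in the noncoding RNA gene Y38F1A.12. The strongest cyd-1 regions of the replicates lay elsewhere in the gene, at 5350 bp in replicate 1 (rank 2459) and 11680 bp in replicate 2 (rank 1086).

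Of 10 genes listed as partners of LIN-53 in chromatin complexes, or as its paralogue in the case of rba-1, 7 had a pooled region, 6 had overlapping regions in both replicates and 1 had an IDR peak. That peak was at chaf-2, which encodes a subunit of the chromatin assembly factor CAF-1, at rank 314 of the IDR set, 218 in replicate 1 and 462 in replicate 2. Its pooled summit lay at -283 bp from chaf-2 and at -216 bp from Y71G12B.30. The histone deacetylase gene hda-1 had a pooled region at rank 883, with its summit at -954 bp and inside the noncoding RNA gene C53A5.18. Replicate 2 ranked that region 686, and the strongest replicate 1 region at hda-1, in a coding exon, ranked 10184.

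Among 10 synMuv B genes outside DREAM, 6 had a pooled region, 5 had overlapping regions in both replicates and 0 had an IDR peak. The strongest was lin-61, which encodes a protein with MBT repeats, at rank 576 in the pooled list, 410 in replicate 1 and 1076 in replicate 2. Next came tam-1 at rank 819, with its summit in the 5′ UTR at 20 bp from the start, rank 250 in replicate 1 and rank 1484 in replicate 2. Of 5 germline genes that DREAM represses in somatic cells, 0 had a pooled or replicate 2 region and 3 had a weak region in replicate 1, against shares of 28.8%, 37.3% and 46.3% of protein-coding genes. One of the 1000 strongest pooled regions was found at 4 of 8 DREAM members, 1 of 16 cell cycle genes, 2 of 10 LIN-53 partners, 2 of 10 synMuv B genes and 0 of 5 germline genes. These lists are short, and whether they differ from the members was not tested.

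**Figure D4:**
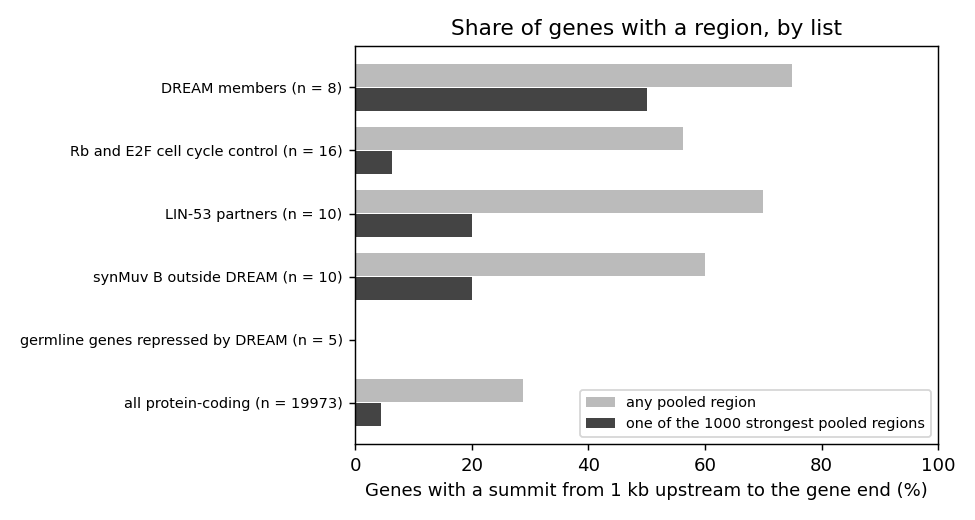
Percent of genes in each list with a summit from 1 kb upstream to the gene end, for any pooled region (grey bars) and for the 1000 strongest pooled regions (dark bars), with the number of genes beside each name. DREAM members stand at 75% and 50%, and all protein-coding genes at 28.8% and 4.41%.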

How the data were processed

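Chromatin immunoprecipitation sequencing of tagged TRA-4 was analysed from the ce11 peak lists of 2 replicates of 1 group. Each deposited region carries a signal value on the caller's own scale, the −log10 of a q-value and a summit position, per the column order of the deposited files. The relaxed lists came from each replicate or from both pooled, with a control alignment among the sources, and the IDR set was drawn from the relaxed lists, per the deposited file descriptions. For the aligner, the peak caller and the IDR cutoff, the sources used here give no name or value. No read counts were used, and the depth is therefore unknown. Regions were ranked by signal within a list, tied regions sharing the lower rank number, and signal was not compared between lists. Genes came from Ensembl release 115 (WBcel235, the assembly of ce11), and sequences from the RefSeq genome of the same assembly. Python 3.11.15 and pandas 2.3.3 were used, and the counting was checked on simulated windows. The text names all 8 members, the genes with the nearest competing starts, and, of 4 further gene lists, mainly genes with an IDR peak or a region in both replicates. Those named for a single list or for a small RNA start were chosen after their values were seen. The members and lists were chosen with earlier results of these data known. With 1 group and no control group, values are given as a description, without a test.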

Additional observations from a re-analysis of the deposited data

How the results depend on the processing

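The alternatives changed the window, the minimum strength of a region, the replicate used, the definition of a shared region or the ranking. Of 38 recomputed values, 33 stayed within 1.5 times of the main count or, for ranks, moved by less than the spread between replicates. The number of members with an IDR peak was 1, and the 394 strongest regions of a single replicate gave 1 to 2. The value of 2 came without replicate 1, when lin-53 joined lin-35. Requiring a q-value under 0.05 lowered the members with a pooled region from 6 to 3. Taking the 1000 strongest regions of replicate 1 lowered its members from 7 to 2, lin-35 and lin-52, where 4.4% of protein-coding genes had such a region. The members with overlapping regions in both replicates fell from 5 to 2 when each replicate was limited to its 1000 strongest, against 2.21% of protein-coding genes, an alternative chosen after seeing the data. Ranked by −log10 q, the lin-35 region moved from 127 to 1, a rank that it shares with all 204 pooled regions at the highest value of 2.61. No paired analysis was possible because there is a single group. Depth is unknown, so how far it limits the weak regions was not tested.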

Other observations

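The gene efl-1 lies in the longest stretch without a summit in the pooled list. No pooled summit lay between 16875387 and 17317165 on chromosome V, a gap of 441.8 kb that holds 107 protein-coding starts. The median gap between neighbouring summits of that list was 4.76 kb, and 1 of 9654 gaps, this one, was as long. The replicates did list regions inside it. Replicate 1 had 19 there, the strongest at rank 3982, and replicate 2 had 13, the strongest at rank 5231. Their density was 4.30 regions per 100 kb in replicate 1, against 15.5 over chromosome V, and 2.94 in replicate 2, against 10.8. The gap around efl-1 in each replicate list, 65.4 kb in replicate 1 and 94.3 kb in replicate 2, was matched or exceeded by 10 of 19056 and 14 of 13951 gaps, itself included. The absence of regions at efl-1 is therefore shared with its neighbours. The mappability of this stretch and its state in the strain were not tested.

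Among the genes of the 4 further lists, chaf-2 has a divergent protein-coding partner 499 bp away, Y71G12B.30, and holds an IDR peak between both starts. The region at lin-61, at rank 576 of the pooled list, also lies upstream of both lin-61 and bub-1, which encodes a kinase of the spindle checkpoint. Those starts are further apart than the 500 bp used for the count of divergent genes. Of the other genes on these lists with such a partner, glh-2, pgl-1 and cdk-1, only cdk-1 had a pooled region in its window, at rank 8116. Its summit lay in the 3′ UTR, 1241 bp downstream of the cdk-1 start, and not between the divergent starts.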
